A study of Rattus norvegicus with 30 samples.

Results

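The perilesional cortex of rats with traumatic brain injury (TBI) was compared with the same cortex of sham-operated controls, with tissue taken 3 months after surgery. Its samples are those whose labels name this tissue, and it holds 10 of the 30 mRNA libraries of the study, 5 from TBI rats and 5 from sham-operated rats. All were adult male Sprague-Dawley rats, 330 to 371 g at the time of injury, whose age in weeks was not given in the sources used here. Both groups carried a craniectomy of 5 mm over the left parietal lobe with the dura left intact, under anesthesia with sodium pentobarbital and chloral hydrate. The TBI group (rats 6 to 10) then received a lateral fluid-percussion injury at 3.32 atm, as the labels give it, and the sham-operated group (rats 1 to 5) did not. Cortex was dissected under a magnifying glass from 2-mm coronal slices, so each library mixes all cell types of the piece, and fewer cells of a type cannot be told apart from less RNA per cell.

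Lateral fluid percussion drives a brief pressure pulse onto the closed dura and leaves a cortical lesion whose border, the perilesional cortex, goes on changing for months. Such tissue is known for loss of neurons and for reactive astrocytes, microglia and infiltrating immune cells. The tables name genes only by Ensembl identifier, and the name table used here (GRCr8) paired 0 of the 26404 identifiers with a symbol. The lists of cell type markers and pathways could not be applied, the labelled tissue could not be checked against its markers, and no sequence is shown. The changes are therefore described by their size, by the abundance of the genes and by how far the libraries of the groups lay apart, with 4 identifiers in full.

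Depth was even between the groups, at 25336207 to 29022015 reads counted on genes per sham library and 26166931 to 29115203 per TBI library. The makeup of the libraries was less even. The 3 most counted identifiers of the cortex took 9.62% to 19.4% of the reads in sham libraries and 5.72% to 14.99% in TBI libraries. Their shares moved together over the 10 libraries (lowest pairwise correlation of log shares 0.96, given as a description), and none of the 3 passed the test between groups (edgeR, smallest adjusted p = 0.25). Of the identifiers listed, 17185 passed the filter on low counts and were tested, 1103 had no read in any cortical library, and 8116 had reads but too few to be tested.

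More genes were called higher than lower after TBI, and the median rise was larger than the median fall. With a threshold of 0.05 on the adjusted p of edgeR, 2437 genes were upregulated (14.2% of those tested) and 1999 were downregulated (11.6%), 25.8% in all. The median upregulated gene rose 1.61-fold, and the quartiles lay at 1.35-fold and 2.04-fold. The median downregulated gene fell by a factor of 1.32, with quartiles of 1.24 and 1.44. Among upregulated genes, 638 changed more than 2-fold, 87 more than 4-fold and 17 more than 8-fold, up to 28.7-fold. Many of the largest rises could pass the low-count filter through the TBI group alone, as every sham library reached 10 reads for 423 of the 638, 38 of the 87 and 8 of the 17. Among downregulated genes, 42 changed more than 2-fold, and the largest fall was by a factor of 2.69. The folds are relative to the scaled library sizes described next, with which the median of all tested genes lay at -0.01 on the log2 scale.

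The count of downregulated genes rested on how the libraries were scaled. The values above use trimmed-mean (TMM) scaling, whose factors ran from 0.797 to 1.03 in sham libraries and from 0.950 to 1.23 in TBI libraries. With the library totals alone, edgeR called 3963 genes higher and 250 lower, so that 94.1% of the calls were rises, against 54.9% with TMM. Leaving the 3 most counted identifiers out of those totals gave 3969 higher and 620 lower, or 86.5% rises. The median log2 fold change of all genes moved to 0.21 and 0.14 in these fits. Both scalings called nearly all genes that TMM called higher (2437 and 2433 of 2437) but 250 and 619 of the 1999 that it called lower. With relative log expression (RLE) factors in place of TMM, edgeR called 2405 genes higher and 2014 lower. These held 2399 of the 2437 and 1977 of the 1999.

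With TMM, rises and falls came from different parts of the abundance range. Abundance was the mean CPM over all 10 libraries, that is, counts relative to the TMM-scaled library size. The median upregulated gene stood at 7.60 CPM and the median downregulated gene at 36.4 CPM, beside 12.5 CPM for all genes tested. Between 1 and 10 CPM, 18.7% of 6111 genes were upregulated and 5.73% were downregulated. Between 100 and 1000 CPM the order was turned, with 8.45% of 1385 genes upregulated and 30.3% downregulated. Library totals turned this order, with 274 genes higher and 60 lower in that class, and totals without the 3 most counted identifiers gave 274 and 159. The class between them, 10 to 100 CPM, had 11.6% upregulated and 14.8% downregulated of 7991 genes. Of the 88 genes at 1000 CPM or more, 13 rose and 18 fell. The order turned in these classes too, to 1696 higher and 116 lower at 10 to 100 CPM and 16 and 5 at 1000 CPM or more with library totals, and to 1730 and 305, and 16 and 13, without the 3 most counted identifiers. Under 1 CPM, 241 of 1610 genes rose and 31 fell, but a gene of this class could pass the low-count filter through its higher group alone, so its counts are not read as a direction. That class also held 162 of the 638 rises over 2-fold. Of the 638, 423 had at least 10 reads in every sham library. Some rises at 1 CPM or more could thus also pass the filter through the TBI group alone. Their number in each class was not counted. Among abundant genes the median rise and fall with TMM were close, at log2 fold changes of 0.36 and -0.36 for genes called at 100 to 1000 CPM and 0.41 and -0.44 at 1000 CPM or more, and both depend on the scaling.

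**Figure D1:**
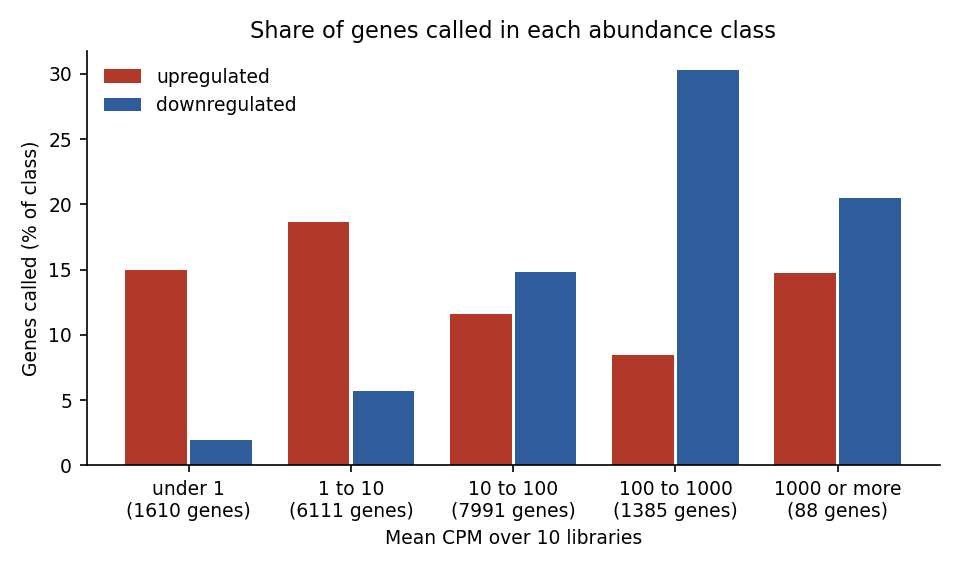
Share of tested genes that were upregulated (red) or downregulated (blue) at an adjusted p under 0.05, in % of each abundance class on the y axis, against mean CPM over the 10 cortical libraries on the x axis, with TMM scaling. The downregulated share reaches 30.3% at 100 to 1000 CPM, and the upregulated share is highest, at 18.7%, at 1 to 10 CPM, whereas with library totals more genes of the class of 100 to 1000 CPM were called higher (274) than lower (60).

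Over all genes of a class, called or not, the median log2 fold change with TMM was 0.09 for the class of 1 to 10 CPM, -0.05 for 10 to 100 CPM and -0.15 for 100 to 1000 CPM. With library totals these medians were 0.31, 0.17 and 0.06, and without the 3 most counted identifiers 0.24, 0.10 and 0.00060, so the sign for the classes of 10 to 100 and 100 to 1000 CPM was set by the scaling. At 1000 CPM or more the median was -0.24 with TMM, -0.02 with library totals and -0.08 without the 3 most counted identifiers. With TMM, each rat was also set against the mean of the sham libraries (of the other 4 for a sham rat). In the class of 100 to 1000 CPM the median shift was between -0.22 and -0.09 on the log2 scale in the 5 TBI rats and between -0.06 and 0.08 in the sham-operated rats, and the groups did not overlap. In the class of 1 to 10 CPM it was 0.06 to 0.14 in TBI rats and -0.05 to 0.07 in sham-operated rats, and these ranges overlapped. The distance between the medians of the 2 classes was 0.24, a quantity that a change of library scaling leaves in place by construction, and it was 0.20 with voom and 0.14 with the share of reads in the 10 most counted identifiers as a covariate.

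**Figure D2:**
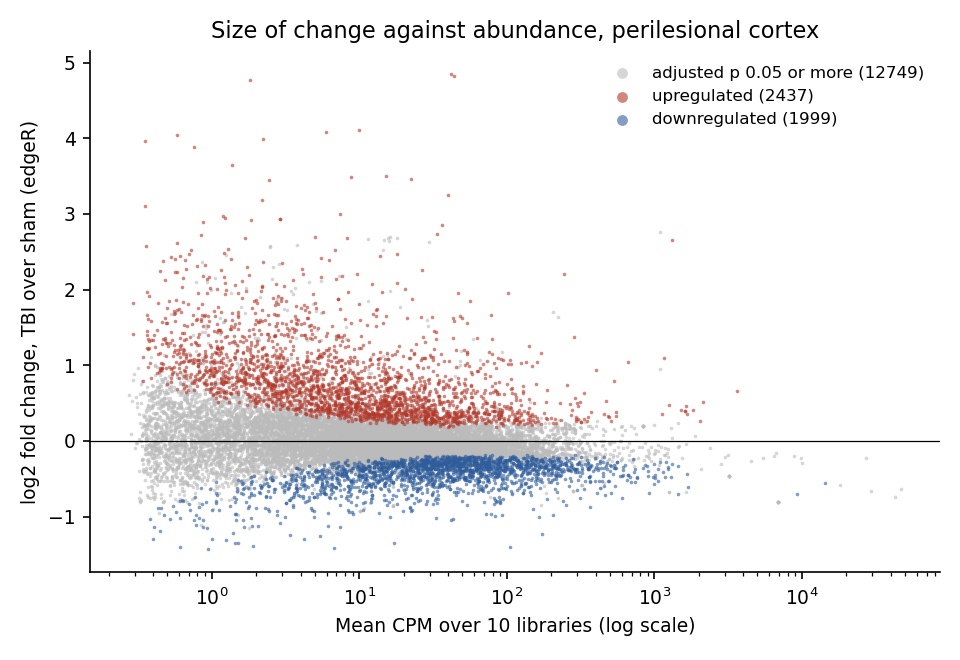
log2 fold change of TBI over sham (y axis) against mean CPM on a log scale (x axis), with 1 point for each of the 17185 genes tested and the 2437 upregulated and 1999 downregulated genes in red and blue. The red points reach a log2 fold change of 4.84 and the blue points reach -1.43.

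Taken as a sum, upregulated genes made up a small share of the mRNA and downregulated genes a larger one. The upregulated genes summed to 64596 ± 2517 CPM in sham libraries (SD, n = 5) and 95176 ± 3908 CPM in TBI libraries (SD, n = 5), a ratio of 1.47. The downregulated genes summed to 227274 ± 8072 CPM (SD, n = 5) in sham and 168517 ± 10134 CPM (SD, n = 5) in TBI libraries, a ratio of 0.741. Since the genes were chosen by this contrast, the sums are a description. With library totals in place of TMM the ratios were 1.71 and 0.862, and the sums of the downregulated genes then overlapped between the groups (186369 to 228617 CPM in sham, 164494 to 199642 CPM in TBI). A few genes carried much of each sum. In mean CPM, 76 of the 2437 upregulated genes gave 50% of the gain, and 98 of the 1999 downregulated genes gave 50% of the loss.

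**Figure D3:**
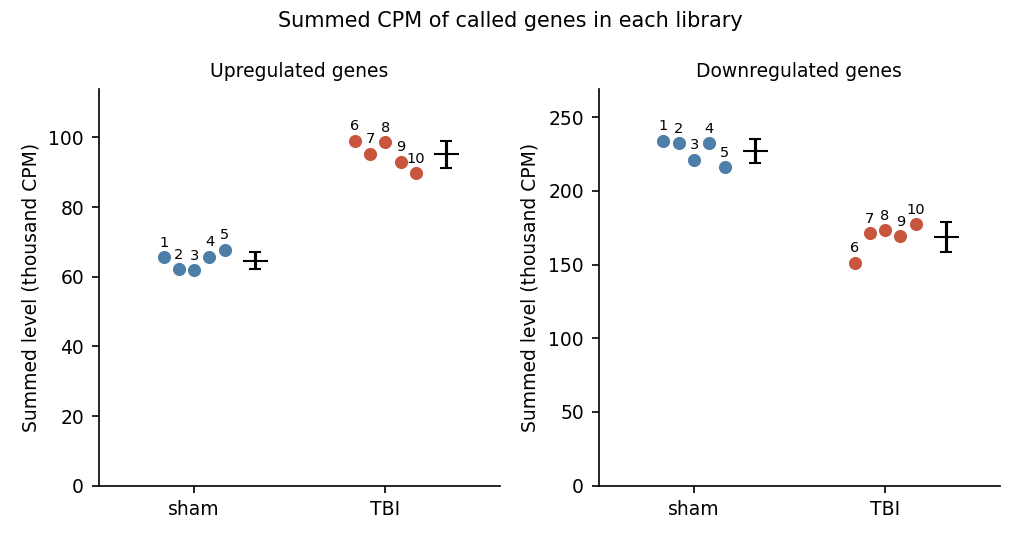
Summed level of the upregulated genes (left) and downregulated genes (right) in units of 1000 CPM, with 1 point per library labelled by rat, and the mean with its SD (n = 5) in black. TBI libraries lie at 89794 to 99046 CPM against 61809 to 67698 CPM in sham on the left, and at 151193 to 177395 CPM against 216172 to 234029 CPM on the right.

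For 1752 genes (10.2% of those tested) all 5 TBI libraries lay above all 5 sham libraries, and for 1360 genes (7.91%) all lay below. Of the upregulated genes, 1675 (68.7%) were separated in this way and the other 762 passed the test with overlapping libraries. Of the downregulated genes, 1237 (61.9%) were separated and 762 overlapped. Separation held for 57.5% of genes that rose by up to 1.5-fold, for 83.2% of those that rose more than 2-fold and for all 17 that rose more than 8-fold. Of the rises with at least 10 reads in every sham library, 68.5% of all 2172 were separated, and 87.7% of the 423 over 2-fold. Only 8 of the 17 rises over 8-fold had these reads, and all 8 were separated. Fold and separation come from the same libraries, so neither supports the other. The empty gap between the groups was wider than the spread within either group for 234 upregulated and 70 downregulated genes. With library totals in place of TMM, 2985 genes had all TBI libraries above and 151 had all below.

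Rises from near silence were few. At under 0.5 CPM in every sham library and over 1 CPM in every TBI library there were 6 of the 17185 genes tested. With the groups exchanged there were 0. The 6 genes passed the low-count filter through the TBI group, so this is a description and not read as a direction. Over all identifiers listed, tested or not, 3 had at least 1 read in every TBI library and none in any sham library, and 2 had the opposite arrangement.

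The TBI rats differed in how far they lay from sham. To keep the choice of genes apart from the rat described, each rat was left out in turn, genes were called on the other 9 rats, and the mean shift of the left-out rat from sham was taken over those genes. For upregulated genes the shift was 0.92 on the log2 scale in TBI rat 6, 0.80 in rat 7, 0.82 in rat 8, 0.73 in rat 9 and 0.55 in rat 10. Rat 6 was highest and rat 10 lowest, and sham-operated rats lay between -0.06 and 0.14. For downregulated genes the shift was -0.50, -0.39, -0.50, -0.43 and -0.33 in rats 6 to 10, and between -0.18 and 0.00 in sham-operated rats. With TMM, no TBI rat came within the sham range on either set. The shifts and the shares below were not taken with library totals. With those totals the sums of the downregulated genes overlapped between the groups. In each TBI rat at least 92.0% of the genes upregulated in the other rats lay above their sham mean, and at least 96.8% of the downregulated genes lay below it. In left-out sham-operated rats these shares were 50.0% to 71.3% and 50.9% to 76.9%, both highest in rat 5.

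**Figure D4:**
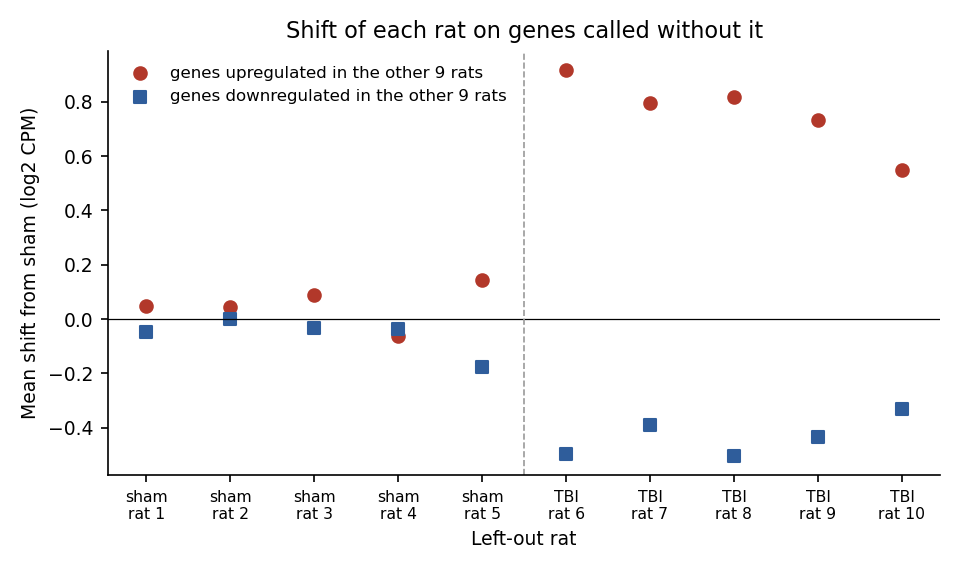
Mean shift from sham in log2 CPM (y axis) of each left-out rat (x axis), over genes upregulated (red circles) or downregulated (blue squares) in the other 9 rats, with TMM scaling. TBI rats lie at 0.55 to 0.92 and at -0.50 to -0.33, and sham-operated rat 5 lies closest to them among the sham-operated rats.

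Among the separated genes the rats were also compared gene by gene with TMM. TBI rat 10 was the TBI library nearest to sham for 38.4% of the 1675 upregulated and 39.0% of the 1237 downregulated genes. TBI rat 6 was the farthest for 43.9% and 43.7%. On the sham side, rat 5 was nearest to TBI most often, for 29.4% and 33.4%. These ranks were not taken with library totals. With those totals the summed downregulated genes were lowest in TBI rats 8 and 7, at 164494 and 167340 CPM. Rat 6 stood at 185590 CPM. For the summed upregulated genes rat 6 stayed highest, at 121579 CPM. Rats 7 and 8 were lowest among TBI rats there, at 93097 and 93669 CPM. The share of reads in the 3 most counted identifiers was 5.80%, 14.99%, 14.1%, 5.72% and 6.76% in TBI rats 6 to 10. Its part in the shifts of the rats from sham was not tested. The SD of log2 CPM over the 5 rats was larger in TBI than in sham for 41.9% of all genes tested, with a median of 0.17 in TBI and 0.19 in sham. It was larger in TBI for 49.0% of the upregulated, 45.4% of the downregulated and 40.0% of the genes not called. The difference in spread was not tested.

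Single genes are shown by 4 identifiers, the most abundant and the most widely separated in each direction. ENSRNOG00000018454 was the most abundant upregulated gene with separated libraries, at 3325, 2605, 2535, 2978 and 2606 CPM in sham-operated rats 1 to 5 and 3903, 4697, 5093, 4517 and 3888 CPM in TBI rats 6 to 10. Every TBI library lay above every sham library, and the nearest were sham-operated rat 1 and TBI rat 10. It rose by 0.65 on the log2 scale (standard error 0.11, edgeR adjusted p = 0.00055), from 2810 ± 336 to 4419 ± 522 CPM (SD, n = 5 each). In the thalamus of the same rats, sequenced on another instrument, it was at 6313 ± 544 CPM in sham and 11503 ± 3202 CPM after TBI (SD, n = 5; log2 fold change 0.87, edgeR adjusted p = 0.023, where 5.62% of genes passed), and TBI rat 6 lay at 6794 CPM, within the sham range. In the hippocampus it was at 2647 ± 350 and 3278 ± 224 CPM (SD, n = 5; log2 fold change 0.31, edgeR unadjusted p = 0.0045, adjusted p = 0.51). In the hippocampus edgeR called 0 of 16963 genes (1432 at an unadjusted p under 0.05), so no adjusted p there sets a gene apart. That fit kept all 5 sham libraries, some of which the study discarded for low alignment. Whether the differences of ENSRNOG00000018454 varied between brain areas was not tested.

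ENSRNOG00000017595 had the widest gap among upregulated genes, 5.43 times the wider of the within-group ranges on the log2 scale. It was at 6.59, 6.66, 6.92, 6.50 and 6.84 CPM in sham-operated rats 1 to 5 and at 9.93, 9.90, 10.3, 10.1 and 9.73 CPM in TBI rats 6 to 10. The groups did not overlap, and the change was from 6.70 ± 0.17 to 9.998 ± 0.22 CPM (SD, n = 5 each; log2 fold change 0.58, standard error 0.08, edgeR adjusted p = 0.00020). As the gene was chosen for its gap, these SDs do not measure the variation between rats, and they are below the 0.51 and 0.58 CPM that counting error alone gives at its depth. In the thalamus it was at 17.4 ± 2.00 CPM in sham and 23.5 ± 3.81 CPM after TBI (SD, n = 5; edgeR adjusted p = 0.073), and in the hippocampus at 7.46 ± 0.55 and 7.37 ± 0.78 CPM (SD, n = 5; edgeR adjusted p = 0.97).

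ENSRNOG00000030478 was the most abundant downregulated gene with separated libraries and the ninth identifier of the cortex by mean CPM. It was at 11995, 13552, 9845, 11745 and 10423 CPM in sham-operated rats 1 to 5 and at 4985, 8073, 8950, 6618 and 6883 CPM in TBI rats 6 to 10. The groups were apart, by 1.10-fold between sham-operated rat 3 and TBI rat 8. It fell by 0.70 on the log2 scale (standard error 0.14, edgeR adjusted p = 0.0025), from 11512 ± 1450 to 7102 ± 1510 CPM (SD, n = 5 each). With the share of reads in the 10 most counted identifiers as a covariate the log2 fold change was -0.46 (edgeR adjusted p = 0.019), though in some libraries this share includes the gene's own reads. In the thalamus it was at 4986 ± 1203 CPM in sham and 5243 ± 1492 CPM after TBI (SD, n = 5; edgeR adjusted p = 0.86). In the hippocampus sham-operated rats 4 and 5 stood at 11907 and 10000 CPM, above the other 3 sham libraries at 2845 to 4644 CPM and the TBI libraries at 2201 to 3099 CPM (edgeR adjusted p = 0.51). The study discarded some hippocampal control libraries for low alignment, and whether rats 4 and 5 were among them is not given.

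ENSRNOG00000036663 had the widest gap among downregulated genes, 2.70 times the wider within-group range. It was at 58.1, 58.3, 55.3, 57.5 and 55.1 CPM in sham-operated rats 1 to 5 and at 47.5, 47.2, 46.1, 45.4 and 45.6 CPM in TBI rats 6 to 10. The groups did not overlap, as the choice by gap requires, and the fall was small, from 56.9 ± 1.54 to 46.3 ± 0.95 CPM (SD, n = 5 each; log2 fold change -0.29, standard error 0.06, edgeR adjusted p = 0.0028). Because of this choice, the SDs do not measure the variation between rats here either. The TBI SD is below what counting error alone gives at the depth of the gene, and the sham SD is close to it. ENSRNOG00000036663 was no longer called with library totals in place of TMM (log2 fold change -0.07, edgeR adjusted p = 0.64), nor without the 3 most counted identifiers in those totals (-0.14, adjusted p = 0.18). In the thalamus it was at 82.1 ± 11.2 CPM in sham and 63.6 ± 6.45 CPM after TBI (SD, n = 5; edgeR adjusted p = 0.079), and in the hippocampus at 50.9 ± 3.90 and 48.7 ± 2.99 CPM (SD, n = 5; edgeR adjusted p = 0.86).

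**Figure D5:**
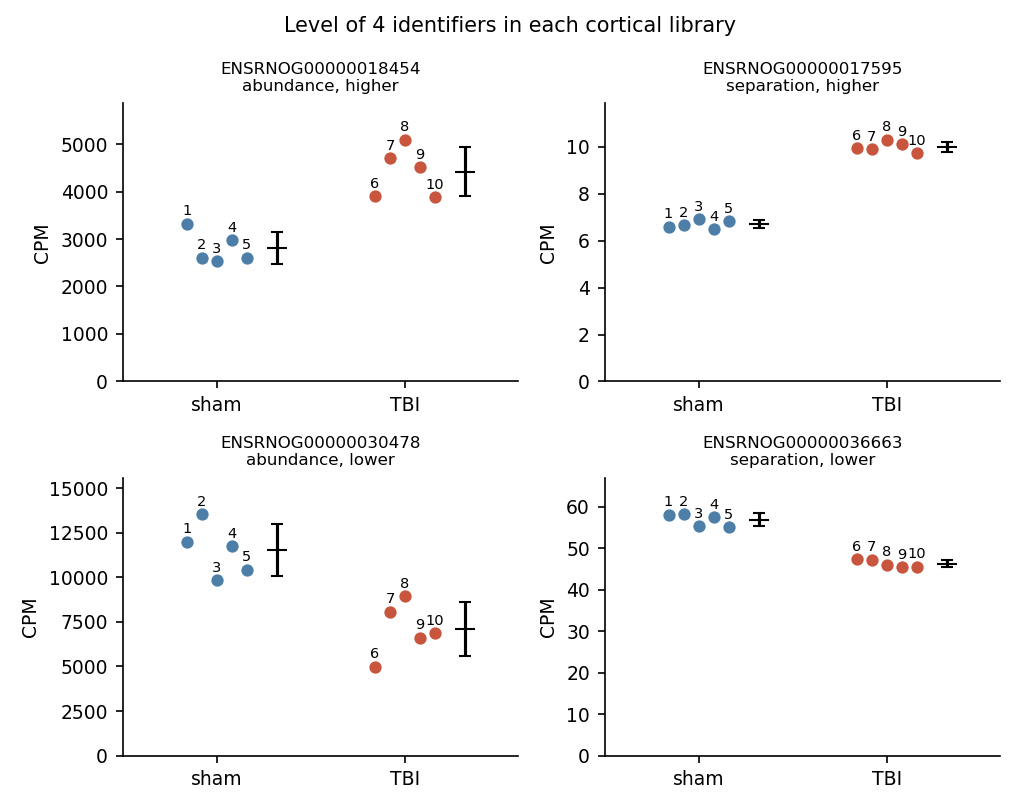
Level in CPM (y axis, from 0) of the 4 identifiers in each cortical library, labelled by rat, with the mean and SD (n = 5) in black. In all 4 panels the TBI libraries lie wholly above or wholly below the sham libraries, at 3888 to 5093 CPM against 2535 to 3325 CPM for the first.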

How the data were processed

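Poly-A mRNA of the perilesional cortex was sequenced with 36 cycles on a Genome Analyzer IIx. The authors aligned the reads to Rnor_5.0 with STAR and deposited raw counts of reads per Ensembl gene. The counting tool and use of strand are not given in the sources used here. Columns were matched to samples by name, except a hippocampal column that names only the rat. It was matched by its rat number.

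Counts were analysed with R 4.3.3 and edgeR 4.0.16 on the 10 cortical libraries (filterByExpr, minimum count 10 and minimum total count 15, TMM scaling, robust quasi-likelihood test, Benjamini-Hochberg adjustment over all genes tested, threshold 0.05). log2 CPM used a prior count of 3. Thalamus and hippocampus were each fitted alone in the same way; the study discarded some hippocampal control libraries for low alignment without naming them in the labels, and all 5 were used here. Alternatives were DESeq2 1.42.0 (the study's tool), RLE factors, no low-count filter, limma 3.58.1 voom with sample weights, and each rat left out. Added after the data were seen were library totals, with and without the 3 most counted identifiers, and the share of the 10 most counted identifiers as a covariate.

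The comparison and lists were chosen with earlier results of these data known. The name table (GRCr8) matched 0 identifiers, so the fixed marker and pathway lists were not tested, and the naming rule (size, abundance, separation, at least 1 CPM on average, adjusted p under 0.05, libraries apart) was applied without its condition on symbols, to the first identifier by abundance and by separation in each direction. Within groups, all 20 pairs of libraries differed beyond sampling noise (chi-square per degree of freedom of at least 15.05). Of 15475 tested identifiers with at least 300 reads, 86 had counts identical to another, 14 of them called, so shared loci are uncertain. The fits were tested on simulated counts.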

Additional observations from a re-analysis of the deposited data

Results flagged for a closer look

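The shift of sham-operated rat 5 on genes downregulated in the other 9 rats was -0.18 on the log2 scale, and the next sham-operated rat was at -0.05. The gap took 0.726 of the range of the 5 sham-operated rats, above the 0.71 that marks a sample far from the others. This was 1 of 36 groups of 5 so examined, where chance marks about 1 in 20. The shift was taken with TMM only. With library totals the summed downregulated genes were lowest among sham-operated rats in rat 1, at 186369 CPM. Rat 5 stood at 212458 CPM. Leaving out rat 5 gave 2531 upregulated and 1872 downregulated genes in edgeR, against 2437 and 1999 with all rats.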

How the results depend on the processing

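With a single rat left out, edgeR called 2070 to 2540 genes higher and 1420 to 1897 lower, 512 to 781 and 36 to 58 changed over 2-fold higher and lower, and 75 to 121 rose over 4-fold. Separated genes then numbered 1845 to 2177 higher and 1478 to 1874 lower, and the summed ratios were 1.46 to 1.49 and 0.732 to 0.761. Of the called genes, 1770 higher and 1210 lower passed in each of those 10 fits, and 1568 and 233 (11.7% of the genes called lower) in all 17 alternative fits. DESeq2 called 2586 higher and 2347 lower, voom 2784 and 2466, and no low-count filter 2443 and 1625, where 138 rose over 4-fold. With the covariate, edgeR called 2221 and 2018, which held 1831 and 1240 of the called genes.

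Library totals gave 3963 higher and 250 lower, 1074 and 15 changed over 2-fold, 131 rose over 4-fold, 2985 and 151 were separated, and the summed ratios were 1.71 and 0.862. Without the 3 most counted identifiers in the totals, these were 3969 and 620 called, 18 over 2-fold lower, 3080 and 352 separated, and ratios of 1.64 and 0.825. No gene called in the main analysis was called in the opposite direction in any of the 17 alternative fits, and 4377 of 4436 kept their sign in all of them. The cause of the difference between scalings was not tested. No paired analysis was possible because no rat was in both groups.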
